A study of Mus musculus with 3 samples.

Results

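The DNA replication origin and fork genes measured here were 44 of the 22180 named genes of 3 expression arrays. They were chosen by gene symbol: the Mcm, Orc, Gins, Rfc and Rpa families, the subunits of DNA polymerases alpha, delta and epsilon, both primase subunits, and Cdc6, Cdt1, Cdc45, Gmnn and Pcna. These genes had 47 probe sets, and where a gene had several the probe set with the higher mean signal was used. Mcm3ap fits the symbol pattern but encodes a protein of mRNA export and is not a subunit of the helicase. The symbol Rfc4 stood only on a probe set that also carried another gene's symbol, and Rfc4 was not analysed here.

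All 3 arrays belonged to 1 group, wild-type CD1 mice labelled postnatal day 8, while the growth protocol allows day 7 or 8. Cells of the ventricular-subventricular zone, the stem cell region of the lateral ventricles, were plated at 10 cells per microlitre and grown for 7 days as neurospheres, floating colonies of precursor cells, with the growth factors FGF (10 ng/ml) and EGF (20 ng/ml). There was no second genotype, treatment or time. Pups were cultured separately per the protocol, but no source used here says if an array stands for 1 pup. The spread between the 3 arrays may therefore be technical. The detection p-values rest on that spread pooled over all genes, not on a gene's own. Each array is RNA of a whole culture, in which fewer replicating cells and less RNA per cell cannot be told apart.

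DNA replication begins at origins, which are bound by the origin recognition complex. During G1 phase this complex, with Cdc6 and Cdt1, loads rings of Mcm2 to Mcm7 onto DNA, a step called licensing, which geminin blocks by binding Cdt1. In S phase Cdc45 and the GINS complex join the ring to form the active helicase, polymerase alpha-primase starts each strand, polymerases epsilon and delta extend the leading and lagging strands, PCNA holds the polymerases on DNA after RFC has loaded it, and RPA covers single strands. In stem cell cultures such transcripts are used as signs of cycling cells, and many of these genes are textbook targets of the E2F transcription factors.

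The promoters of these genes were examined for the E2F element first, because sequence is independent of the array signals. RefSeq promoters (build GRCm38.p6, 250 bases before and 50 after each start site) were held for 36 of the 44 genes, in 42 entries. The E2F element was searched as TTTCCCGC, TTTCGCGC, TTTGCCGC and TTTGGCGC, and the CCAAT box as CCAAT, both on either strand. At least 1 E2F match lay in 17 of the 42 promoters (40.5%), against 744 of all 32851 promoters (2.26%). Genes of the related lists described further on had a match in 8 of 62 promoters (12.9%). Those lists hold other replication pathway genes, but also other DNA polymerases and relatives that act elsewhere. The share was 3.94% for promoters of genes above the reference level defined below, 0.970% for those of measured genes not above it, and 4.05% for promoters whose GC content lay within the middle 50% of that of the replication genes. The median GC content was 61.8% for the replication genes and 52.7% for all promoters.

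The bases before the start are shown for Cdc6, Orc1, Mcm5 and Mcm6, which hold E2F matches there, and for Pcna, whose window holds none. Capitals mark E2F and CCAAT matches, and each run covers 250 bases 5′ to 3′ in the direction of the gene.
Cdc6, chr11:98907901-98908150, plus strand: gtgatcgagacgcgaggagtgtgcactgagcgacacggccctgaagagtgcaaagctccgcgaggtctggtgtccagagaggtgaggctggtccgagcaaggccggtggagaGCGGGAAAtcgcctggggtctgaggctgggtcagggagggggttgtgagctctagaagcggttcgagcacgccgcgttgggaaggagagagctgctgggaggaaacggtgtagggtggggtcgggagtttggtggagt
Orc1, chr4:108579204-108579453, plus strand: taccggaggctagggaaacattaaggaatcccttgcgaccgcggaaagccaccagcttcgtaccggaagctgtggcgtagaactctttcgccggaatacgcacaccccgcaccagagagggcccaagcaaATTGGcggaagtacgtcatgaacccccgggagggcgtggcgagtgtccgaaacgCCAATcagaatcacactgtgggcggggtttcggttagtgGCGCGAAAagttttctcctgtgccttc
Mcm5, chr8:75109259-75109508, plus strand: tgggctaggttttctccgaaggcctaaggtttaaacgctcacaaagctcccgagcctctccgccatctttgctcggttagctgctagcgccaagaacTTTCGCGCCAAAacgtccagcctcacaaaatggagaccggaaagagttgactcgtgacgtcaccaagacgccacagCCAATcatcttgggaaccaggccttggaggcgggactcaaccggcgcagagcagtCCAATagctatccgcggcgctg
Mcm6, chr1:128359706-128359955, minus strand: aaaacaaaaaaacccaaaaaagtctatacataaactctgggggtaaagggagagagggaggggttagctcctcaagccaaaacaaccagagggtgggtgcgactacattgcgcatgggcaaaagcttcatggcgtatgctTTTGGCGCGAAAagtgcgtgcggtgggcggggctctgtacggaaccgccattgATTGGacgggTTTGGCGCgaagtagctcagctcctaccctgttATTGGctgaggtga
Pcna, chr2:132253181-132253430, minus strand: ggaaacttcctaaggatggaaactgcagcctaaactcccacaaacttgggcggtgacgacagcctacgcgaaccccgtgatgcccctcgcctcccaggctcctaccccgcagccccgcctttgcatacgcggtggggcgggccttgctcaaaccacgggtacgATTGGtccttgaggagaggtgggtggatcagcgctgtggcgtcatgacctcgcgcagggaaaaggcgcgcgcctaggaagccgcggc
In Mcm5 a sense and an antisense match overlapped, as they did in Mcm6, which had a further match nearer the start. Orc1 carried its match at base -27, between CCAAT matches and the start. The Pcna window showed 1 CCAAT match and none of the E2F letters searched. That says only that those letters are not in this window.

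Shorter stretches of 30 bases around a match are given for further genes, picked among those with a match, from licensing to the clamp loader. Capitals mark E2F matches only.
Cdt1, chr8:122568035-122568064, plus strand: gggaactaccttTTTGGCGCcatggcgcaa
Mcm3, chr1:20820275-20820304, minus strand: aaacttccgtgGCGGGAAAacttgggaagt
Mcm7, chr5:138171849-138171878, minus strand: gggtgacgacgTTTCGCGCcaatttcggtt
Gins3, chr8:95633507-95633536, plus strand: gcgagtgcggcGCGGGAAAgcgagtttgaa
Pola1, chrX:93632275-93632304, minus strand: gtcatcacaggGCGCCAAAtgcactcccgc
Pold3, chr7:100121467-100121496, minus strand: gagcgaagctgTTTCCCGCcggcgggagct
Pole2, chr12:69228162-69228191, minus strand: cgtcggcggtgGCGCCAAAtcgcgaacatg
Rfc3, chr5:151651200-151651229, minus strand: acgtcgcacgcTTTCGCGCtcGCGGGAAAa
Mcm3 and Mcm7 each had 1 further match that is not printed, while the Rfc3 stretch shows both of its matches. Distinct matches numbered 22 in 16 genes, since the 2 start sites of Pole4 share the same bases. Of the 23 matches counted per start site, 16 began within 60 bases of the start, and the range ran from base -165 to base 40.

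By role, 4 of the 5 Mcm2 to Mcm7 genes with a promoter held an E2F match, Mcm2 being the exception. So did 2 of 2 licensing genes, 2 of 6 origin recognition genes and 0 of 3 RPA genes. Matches were in 1 of 2 genes of helicase activation, 1 of 3 of polymerase alpha-primase and 2 of 4 of polymerase delta. They were in 2 of 3 genes of polymerase epsilon, 1 of 4 of the clamp and loader and 1 of 4 other Mcm genes. The CCAAT box was in 61.9% of the replication promoters and 37.4% of all promoters. It was in 40.3% of those of the related lists, with the other polymerases and the relatives included. Counted by gene, it was in 66.7% of the replication genes and 41.1% of all genes with a promoter. It was found in 3 of 3 RPA genes and 5 of 5 Mcm2 to Mcm7 genes with a promoter. Licensing genes held it in 0 of 2 and polymerase epsilon genes in 0 of 3. Counts were 4 of 6 for origin recognition, 2 of 2 for helicase activation and 2 of 3 for polymerase alpha-primase. They were 2 of 4 for polymerase delta, and 3 of 4 each for the clamp and loader and the other Mcm genes. A single CCAAT match, in Mcm7, overlapped an E2F match. A TATAAA match on either strand was present in 2 of the 42 promoters (4.76%), against 13.6% of all promoters, 7.32% of those of genes above the level and 5.26% of those of like GC content. The plot of motif positions shows E2F matches within 60 bases of the start site in genes of several roles, and others further upstream. The window ends 50 bases after the start, and match positions in other promoters were not compared.

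**Figure D1:**
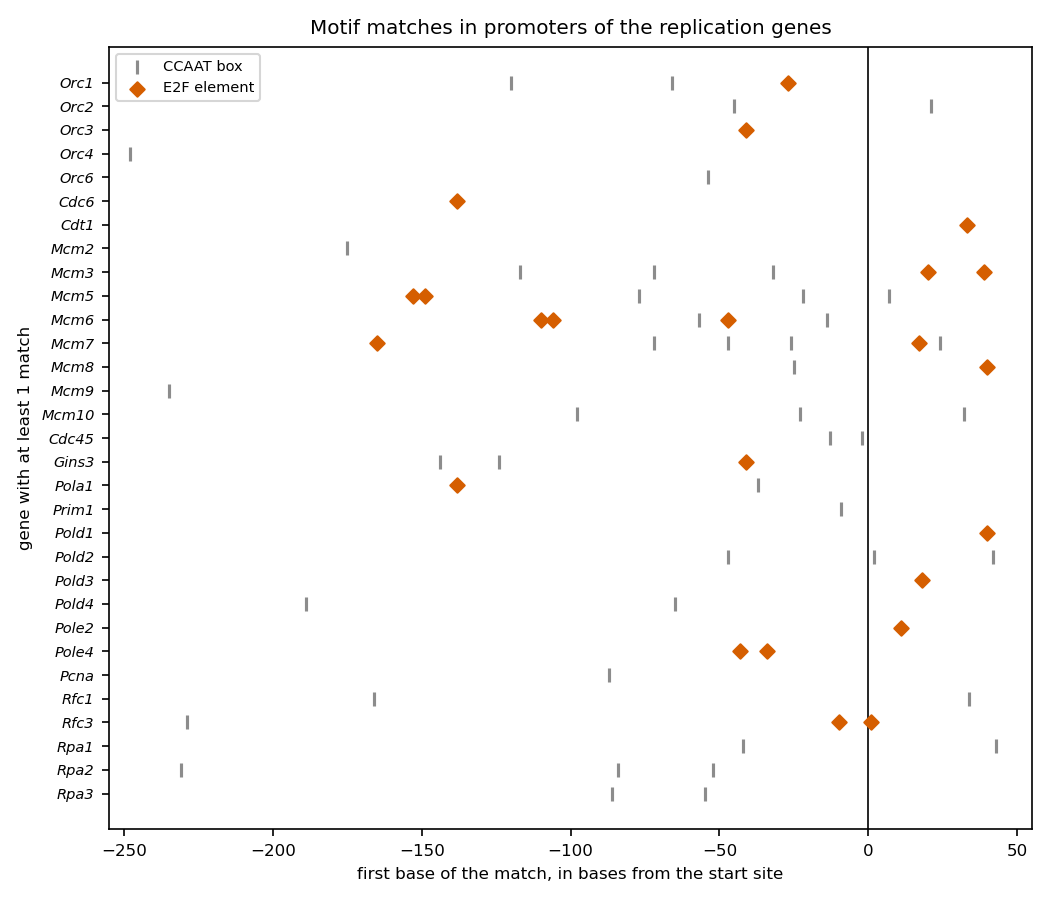
Positions of E2F (orange diamonds) and CCAAT (grey ticks) matches in the RefSeq promoters of the replication genes, in bases from the start site (horizontal axis), 1 gene per line, start sites of a gene overlaid. E2F matches lie between base -165 and base 40, and 5 genes (Mcm3, Mcm5, Mcm6, Mcm7 and Rfc3) hold 2 or more distinct ones.

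Head-to-head neighbours were a second feature of position looked at, and most of the replication genes had none. A start site on the opposite strand, pointing away and at most 1000 bases distant, was found for 11 of 36 replication genes (30.6%), against 12.3% of all genes with a promoter and 19.4% of genes above the reference level. This feature was chosen after values had been seen and is a description. Orc1 lay 118 bases from Prpf38a, a splicing factor gene, and Mcm7 lay 138 bases from Ap4m1, an adaptor complex gene. Cdc45 lay 322 bases from Ufd1, a gene of protein degradation. Of the 10 partners measured, 8 were above the reference level, where 59.1% of all genes were. That share is over all genes measured, not over genes with a head-to-head neighbour. Among the 8 partners above were Prpf38a (mean signal 9.12), Ap4m1 (9.47), Ufd1 (9.75), Gm15834 (6.76) and 6030443J06Rik (6.60). The partners 4933430I17Rik (5.53) and Gm15728 (5.52) were not above.

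Signals are log2 values made by the authors with RMA, and the unspecific signal of an array served as the yardstick for its genes. Receptor genes of the nose (olfactory and vomeronasal, 1405 probe sets) supplied this reference level through their 95th percentile, which stood at 5.63, 5.53 and 5.71 on arrays 1, 2 and 3. A gene was called above it when limma's one-sided moderated test gave an adjusted p under 0.05. The margin is the mean of signal minus reference level over the 3 arrays. Probes bind with different strength, so levels of different genes were not ranked.

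All 44 replication genes were above the reference level, where 59.1% of all genes were (62.8% with the receptor genes left out, and 3.87% of the receptor genes themselves). The median margin of the 44 was 2.71 log2 units, against 0.76 for all genes and 2.50 for all genes above the level. Most of these genes stood far from the level, and 4 lay within 1 log2 unit of it (Orc1, Gmnn, Gins1 and Mcm9). With the 99th percentile of the receptors as the level (6.42, 6.09 and 6.69 on the 3 arrays), 39 of 44 passed, against 44.9% of all genes. The 5 that no longer passed were Orc1, Gmnn, Gins1, Mcm9 and Cdc45.

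**Figure D2:**
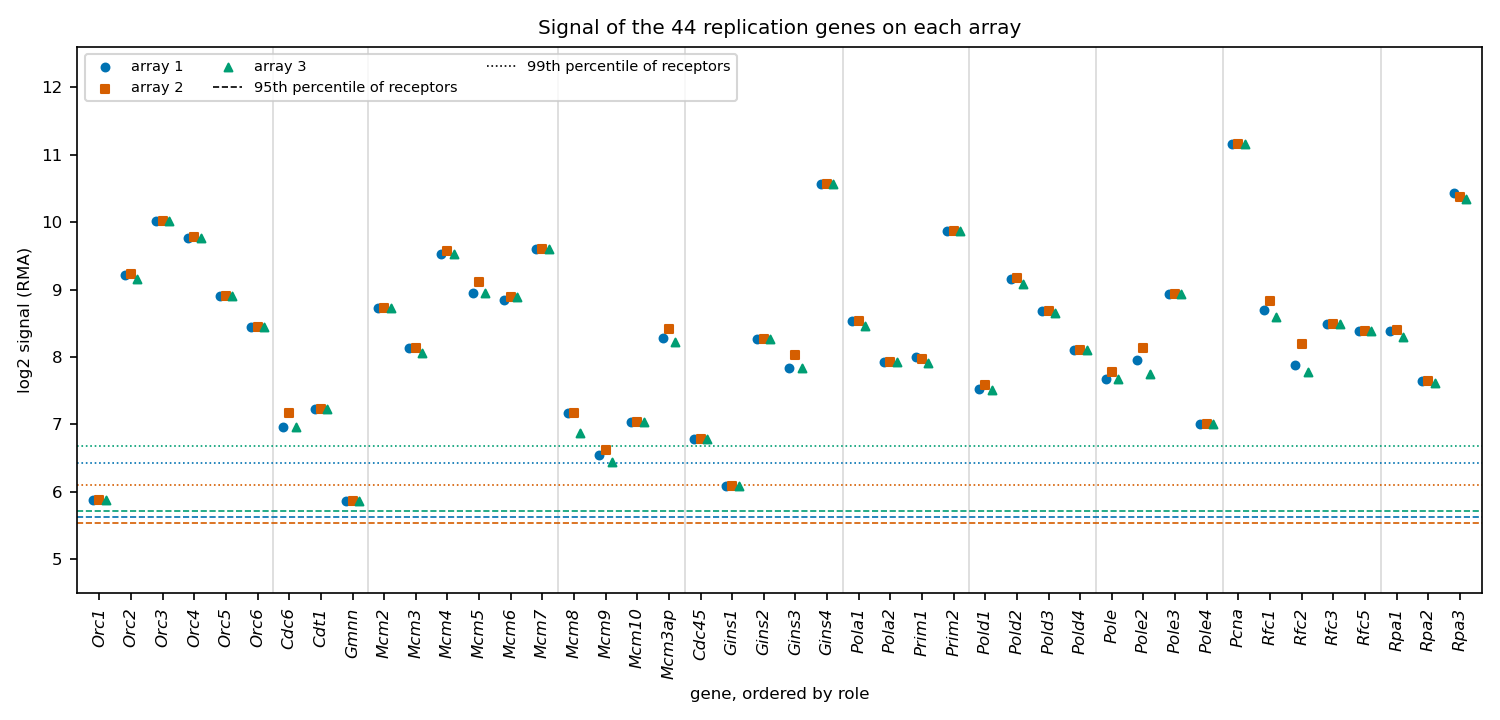
Log2 signal (vertical axis) of the 44 replication genes on arrays 1 (circles), 2 (squares) and 3 (triangles), ordered by role, with grey lines between roles. Dashed and dotted lines give each array's 95th and 99th receptor percentile; all points lie over the dashed lines, and Orc1, Gmnn and Gins1 lie between the dashed lines and the dotted lines of every array. Heights of different genes are not comparable.

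Many of the deposited values were exactly equal between arrays, and this bounds what the spread can show. The 3 values were identical for 20 of the 44 replication genes (45.5%) and for 37.2% of all genes above the level. Different probe sets also shared values: each array held 23211 to 26020 distinct values for 41345 probe sets. An SD of 0 below means identical deposited values and understates the true error. The SD of 0.090 on the margin of such a gene is the spread of the reference levels alone.

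All 6 genes of the origin recognition complex were above the level, with 1 subunit gene close to it. Orc1, the subunit gene whose product is regulated through the cell cycle in mammalian cells, read 5.87 on each array and had a margin of 0.25 ± 0.090 (SD, n = 3; limma adjusted p = 0.00113). This value was shared on array 1 by 60 other probe sets. Without array 1 the adjusted p of Orc1 was 0.0931, and over all alternatives it ran from 4.63e-18 to 1. The other subunit genes stood well clear. Orc2 had a mean signal of 9.20 ± 0.038, Orc4 9.77 ± 0.0097, and Orc3, Orc5 and Orc6 had 10.02, 8.90 and 8.44 on every array.

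All 3 licensing genes gave signals over the level, with Gmnn close to it. Cdc6, which encodes the ATPase that helps load the helicase, read 6.97, 7.17 and 6.97 on arrays 1, 2 and 3, with a margin of 1.41 ± 0.20. Its array 2 value stood over the equal values of the other arrays. Cdt1, the gene of the licensing factor that delivers the helicase rings, read 7.22 on each array and had a margin of 1.60 ± 0.090. Gmnn, which encodes geminin, the inhibitor of Cdt1, read 5.86 on each array, with a margin of 0.24 ± 0.090 (limma adjusted p = 0.00179). The call of Gmnn was lost without array 1 (adjusted p = 0.106), and its adjusted p ran from 1.61e-17 to 1 over the alternatives. Both Gmnn and Orc1 were under the 99th percentile level on every array. The median of all probe sets was 5.87, 5.85 and 5.86 on arrays 1, 2 and 3. Gmnn and Orc1 thus read about as high as the middle probe set of each array.

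The 6 genes of the helicase ring were all above both levels on every array. Mcm2 read 8.73 and Mcm7 read 9.60 on each array. Mcm3 had 8.13, 8.13 and 8.06, so that array 3 alone was lower. Mcm4 read 9.53, 9.57 and 9.53, and Mcm5 read 8.95, 9.11 and 8.95, each with a higher value on array 2 and equal values on the others. Mcm6 read 8.84, 8.89 and 8.89, with array 1 lower. The margins ran from 2.48 ± 0.13 for Mcm3 to 3.98 ± 0.090 for Mcm7, and the widest range between arrays was 0.15, for Mcm5. The promoters of Mcm5 and Mcm6 are those printed above with overlapping E2F matches.

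The other genes with an Mcm symbol were above the level too, Mcm9 by less than 1 log2 unit. Mcm8 and Mcm9 encode a helicase pair of recombination repair. Mcm8 read 7.16, 7.16 and 6.87, with array 3 lower, and its margin was 1.44 ± 0.25. Mcm9 read 6.55, 6.62 and 6.44, with a margin of 0.91 ± 0.18, and on array 3 it was under the 99th percentile level. Mcm10, a factor that helps activate the helicase, had 7.03 on each array. Mcm3ap had a mean of 8.30 ± 0.095.

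Genes of helicase activation were detected with 1 GINS subunit near the level. Cdc45 read 6.79 on each array (margin 1.16 ± 0.090). It exceeded the 99th percentile on every array, yet its adjusted p against that level was 0.0836, and over all alternatives its p ran from 1.49e-88 to 0.195. Gins1 read 6.09 on each array with a margin of 0.46 ± 0.090, a value shared with 49 other probe sets on array 1. It lay under the 99th percentile of each array. The other subunit genes of the same complex had means of 8.26 for Gins2, 7.91 ± 0.11 for Gins3 and 10.57 for Gins4, all above both levels on every array.

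The replicative polymerase genes were all above both levels on every array. Among the genes of polymerase alpha-primase, the enzyme that makes primers, Pola1 had a mean of 8.51 ± 0.049, Pola2 7.93, Prim1 7.96 ± 0.047 and Prim2 9.86. Genes of polymerase delta gave 7.54 ± 0.041 for the catalytic subunit gene Pold1, 9.14 ± 0.048 for Pold2, 8.67 ± 0.022 for Pold3 and 8.11 for Pold4. Genes of polymerase epsilon gave 7.71 ± 0.060 for the catalytic subunit gene Pole, 8.93 ± 0.0027 for Pole3 and 7.00 for Pole4. Pole2 read 7.96, 8.13 and 7.75, with array 2 high and array 3 low, and had the second widest range of the 44, at 0.38.

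The clamp gene and the loader genes analysed were above both levels on every array. Rfc4 was not among them. Pcna, the sliding clamp gene, read 11.16 on each array, with a margin of 5.53 ± 0.090. Of the loader genes, Rfc3 had 8.49 and Rfc5 8.39 on each array. Rfc1, the large subunit gene, read 8.70, 8.83 and 8.59. Rfc2 read 7.88, 8.19 and 7.78, a range of 0.42 and the widest of the 44, with array 2 standing apart from the others. The single-strand binding genes had means of 8.36 ± 0.054 for Rpa1, 7.64 ± 0.016 for Rpa2 and 10.38 ± 0.043 for Rpa3.

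The choice of probe set mattered for 2 genes. Pole had another probe set at 5.22 ± 0.024 and Rpa1 another at 4.41 on each array. With these the margins were -0.41 and -1.21, and neither gene was above the level (limma adjusted p = 1 for each, the upper end of ranges that start at 7.34e-194 and 1.67e-299 over the alternatives). The other probe set of Rpa3, at 7.91 ± 0.0079, was above the level.

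Differences between the 3 arrays were small for these genes, as they were for most genes above the level. By limma's residual variance against its prior, 0 of 44 replication genes and 0 of 13104 genes above the level differed between arrays, and 0 of them had an unadjusted p under 0.05. The prior of that test had 0.299 degrees of freedom among these many equal values, so the test could hardly make calls, and its outcome does not show that the arrays were alike. No replication gene had a range over 0.5 log2 units, where 2.57% of genes above the level did. The median range was 0.023 for the 44 and 0.030 for all genes above the level, figures that the many equal values lower. Among genes with unequal values it was 0.093 for both.

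Where values were unequal, array 2 tended to be the high one and array 3 the low one. Of the 24 replication genes with unequal values, 18 (75%) were highest on array 2 alone, and 54.5% of all genes above the level with unequal values were. Array 3 alone was lowest for 17 of the 24 (70.8%), against 52.4%. The mean deviation of the 24 from the gene mean was 0.064 on array 2 and -0.062 on array 3, and for all such genes above the level 0.022 and -0.025. The receptor reference level went the other way, being lowest on array 2. After quantile normalization the highest-on-array-2 share was 50% for the 24 and 41.5% for all such genes. The mean deviation on array 2 was then 0.038 for the 24 and 0.0021 for all such genes. On array 3 it was -0.029 and 0.0014. Centring the arrays on their medians gave 91.7% and 80.7%. Array 2 had the lowest median (5.85, against 5.87 on array 1 and 5.86 on array 3). Centring thus raised array 2 against the others and broke ties in its favour, so these shares rose by construction. What sets the arrays apart was not tested.

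**Figure D3:**
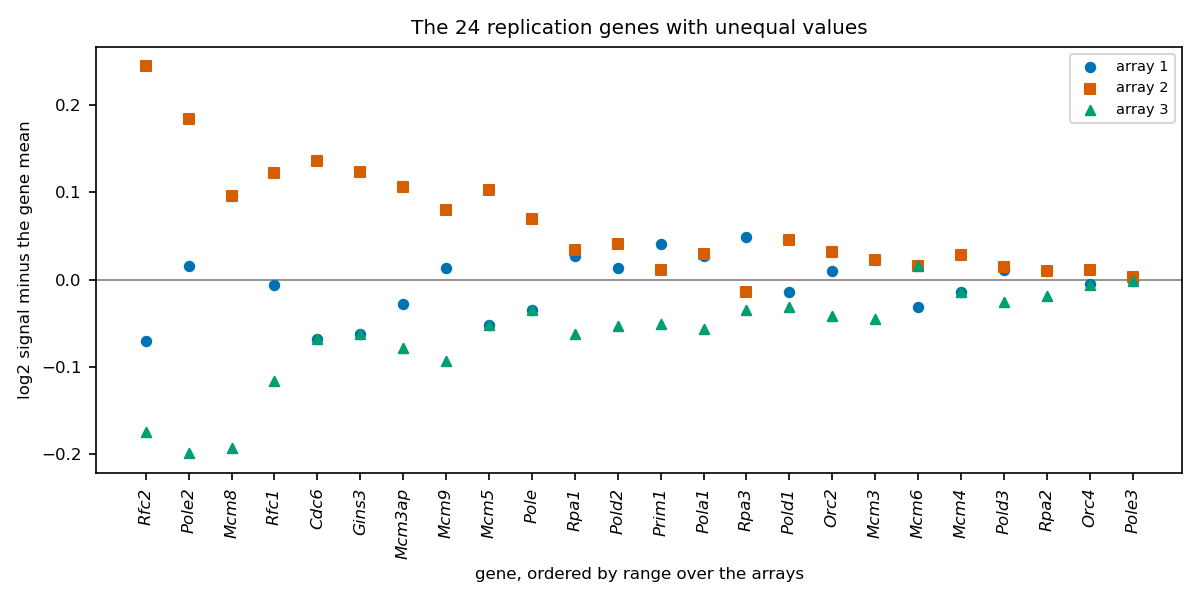
Log2 signal minus the gene's mean (vertical axis) on arrays 1 (circles), 2 (squares) and 3 (triangles) for the 24 replication genes with unequal values, ordered by range; equal values of 2 arrays overlie each other. Squares stand highest alone for 18 of the 24 genes, and all points lie within a range of 0.42 per gene.

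Other genes of the replication pathway, along with other DNA polymerases and relatives that act elsewhere, were placed in 7 lists with 72 members. Of these, 65 were measured and 58 (89.2%) were above the level, where 59.1% of all genes were. With the 99th percentile as the level 52 were above, against 44.9% of all genes. With the other reference genes (defensins, bitter taste receptors and keratin-associated proteins) 49 were above, against 43.5% of all genes. With the lowest mean probe set 56 were above, against 57.0% of all genes. All 13 measured genes of origin firing and fork protection were above, such as Cdc7 (6.67 ± 0.0080) and Dbf4 (7.98 ± 0.10), the kinase and its activator that trigger origin firing, with Ticrr (7.72 ± 0.029) and Mtbp (7.90 ± 0.22). Under each of the 2 stricter references 9 of the 13 were above, and Cdc7, Recql4, Clspn and Timeless were not. Of 8 genes of Okazaki fragment maturation and clamp unloading, 7 were above, including the flap nuclease gene Fen1 (6.86), the ligase gene Lig1 (7.33), Dna2 (7.07 ± 0.11) and Rnaseh2a (8.79). Dscc1, a cohesion-linked clamp loader gene, read 5.16, 5.48 and 5.16 and was not above, and Fen1 was not above with the other reference genes (6 of 8). All 8 genes of replication-coupled chromatin were above, including the histone chaperone genes Chaf1a (6.46 ± 0.039), Chaf1b (7.64 ± 0.080), Asf1a (9.99) and Asf1b (8.08 ± 0.044). With each stricter reference 7 of these 8 were still called above, Chaf1a being the exception.

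Supply and control genes were detected as well. All 8 measured genes of deoxynucleotide supply were above, including the ribonucleotide reductase genes Rrm1 (10.63), Rrm2 (8.34 ± 0.13) and Rrm2b (8.29 ± 0.082) and the thymidylate synthase gene Tyms (8.12). With the lowest mean probe set 6 of the 8 were above, and Rrm2 and Dut were not. All 10 measured genes of licensing control were above, among them Skp2 (9.67 ± 0.0019), Dtl (8.49 ± 0.0034), Ddb1 (11.35) and Cul4a (7.83 ± 0.12), parts of ubiquitin ligases that act on Cdt1. With the other reference genes 9 of the 10 were above, Fbxo5 not being among them. Of 13 other DNA polymerase genes 12 were above, including the repair polymerase gene Polb (9.17 ± 0.040), the mitochondrial polymerase genes Polg (8.21 ± 0.011) and Polg2 (6.94 ± 0.050) and the bypass polymerase gene Polh (7.86 ± 0.20). Dntt, the template-independent polymerase gene of lymphocytes, was not above at 4.45 ± 0.12. The count of these polymerase genes was 11 with the 99th percentile, without Polq, and 10 with the other reference genes, without Polq and Polg2.

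Relatives of the replication genes that act elsewhere were the exception, with 0 of 5 above. Gmnc and Mcidas, geminin relatives that drive the multiciliated cell programme, had 5.31 ± 0.034 (margin -0.32) and 5.67 ± 0.16 (margin 0.05). Mcidas read 5.68, 5.51 and 5.84. The germ cell genes Mcmdc2 and Meiob read 4.44 and 3.13 on each array, and Spata22 read 5.74 (margin 0.12, limma adjusted p = 0.0981). The margins of Gmnn (0.24) and Spata22 (0.12) differ by little, so a call on one side of the level and not the other is no measured difference between genes.

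**Figure D4:**
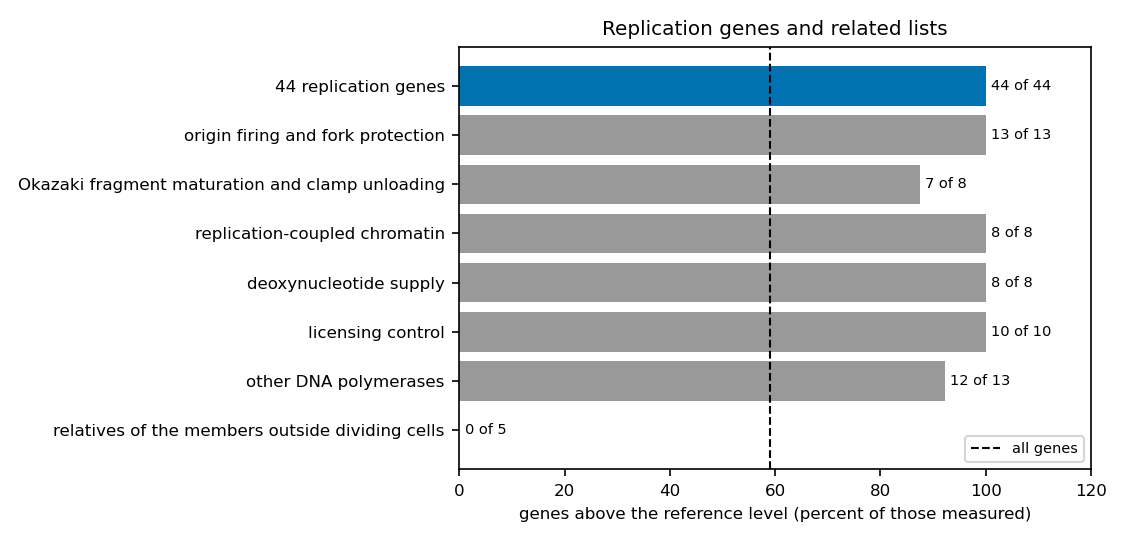
Percent of measured genes above the reference level (horizontal axis) for the 44 replication genes (blue) and 7 related lists (grey), with counts beside the bars; the dashed line is the 59.1% of all genes. Every list but the relatives, with 0 of 5, exceeds the line.

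The labelled cell type was checked on its markers. All 7 measured neural precursor markers were above the level, for example Sox2 (11.39 ± 0.073), Nes (8.50 ± 0.035) and Fabp7 (13.73). Of the markers of other cells, 3 of 7 microglial, 1 of 5 endothelial, 3 of 6 mature neuron and 2 of 5 ependymal genes were above, beside 59.1% of all genes. Clear signals among them came from the synaptic gene Snap25 (8.57, margin 2.94), a mature neuron marker, and the ciliogenesis factor gene Foxj1 (7.86 ± 0.024, margin 2.24), an ependymal marker. Kdr (6.84 ± 0.064), an endothelial receptor gene, was above as well, and the endothelial genes Pecam1 (5.30), Cdh5 (5.48 ± 0.058) and Cldn5 (5.11) were not. Of the neuron markers Syt1 (6.34) and Gad1 (6.74 ± 0.063) were also above, and Slc17a7 (5.13 ± 0.16), Nefl (5.58 ± 0.036) and Nefm (5.31 ± 0.011) were not. Of the ependymal markers Ccdc153 (6.59 ± 0.18) was above, and Dnah5 (5.56), Rsph1 (5.66) and Hydin (5.40) were not. The microglial markers Cx3cr1 (6.66 ± 0.27), P2ry12 (6.05 ± 0.16) and C1qa (6.12) were above, whereas Csf1r (5.55), Aif1 (4.73 ± 0.27) and Tmem119 (5.59 ± 0.24) were not. The part of such cells in the replication gene signals was not tested.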

How the data were processed

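Gene expression was measured on 3 arrays. The authors deposited log2 signals for 41345 probe sets, and the submitters' processing notes name RMA, without version or options. Genes were named from the platform's annotation: 23521 probe sets carried 1 symbol, 1814 several and 16010 none, and only the first kind was named. The gene members and lists were chosen with earlier results of these data known.

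Detection used R 4.3.3 with limma 3.58.1 (intercept model, eBayes with trend, one-sided, Benjamini-Hochberg over 22180 genes). The prior of that fit had infinite degrees of freedom: a gene's own spread carried no weight, margins from 0.15 passed, and very small p-values say little. Array differences used residual over prior variance (one-sided F test). Both steps were tested on simulated data with independent noise and without the equal values found here. That does not show how detection behaves on the deposited values. When changes were added to the deposited values, the variance test did not recover them. The number of arrays limits the precision. Lists are described by counts and no list test was made. Values on each array are given for Mcm2 to Mcm7, Orc1, Cdc6, Cdt1, Gmnn and Pcna, for genes with a margin under 1, and for the 5 widest ranges; up to 4 genes above and 4 not above the level are named per pathway list, all relatives, and up to 3 of each per marker list. Promoters are RefSeq's (GRCm38.p6). For the array's own genome build, none is given in the sources used here. Python 3.11.15 and matplotlib 3.10.9 were used.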

Additional observations from a re-analysis of the deposited data

How the results depend on the processing

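No paired analysis was possible because all 3 arrays belong to 1 group. Of the 44 replication genes, 37 stayed above the reference level under every alternative with a test. These alternatives were the 90th or 99th percentile, other reference genes, other probe set rules, other scaling, no intensity trend, and each replicate left out. The count ranged from 39 to 44, with 42 to 44 when a replicate was left out. Of all genes, 43.5% (other reference genes) to 66.7% (90th percentile) passed, and 56.4% to 58.7% with a replicate left out. The median margin moved from 2.71 to 3.07 with the 90th percentile, 1.93 with the 99th, 1.90 with keratin-associated, defensin and bitter taste receptor genes as the reference, and 2.56 with the lowest mean probe set. Margins turned negative with the 99th percentile for Gins1 (-0.31), Gmnn (-0.54) and Orc1 (-0.53), with the other reference genes for the same 3 genes (-0.35, -0.57 and -0.56), and with the lowest mean probe set for Pole (-0.41) and Rpa1 (-1.21). A higher level or a dimmer probe set gives a smaller margin by construction. With the 90th percentile 2 of the 5 relatives were above, where 66.7% of all genes were. When only a position over the level on each array was asked for, 1 was above, against 59.6% of all genes. The pathway lists together had 49 to 60 of 65 genes above over all alternatives, against 43.5% to 66.7% of all genes. Of the 44 replication genes 0 were called as differing between arrays under each alternative run, which says nothing about stability where the variance test was used, since it could hardly make calls.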
